A study of Mus musculus with 8 samples.

Results

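The TAM system comprises 5 genes here, the ligand genes Gas6 and Pros1 and the receptor genes Axl, Mertk and Tyro3, out of 29915 genes with a tested probe set on 8 Affymetrix arrays. They were taken by symbol from the platform annotation, and the probe set of a gene was chosen by its highest mean value over the 8 arrays. Each of the 5 genes had 1 probe set, so this step left nothing to choose. The arrays measured RNA of LT-HSC, the long-term haematopoietic stem cells, which had been sorted from mouse bone marrow by absence of Lin, Flk2 and CD48 and presence of cKit, Sca and CD150. The donors were wild-type (WT) mice and CD169DTR/+ mice, called CD169-DTR below, which carry the diphtheria toxin receptor at CD169 (Siglec1), a surface lectin of a class of tissue macrophages. Mice of both genotypes received diphtheria toxin, which removes CD169+ macrophages in CD169-DTR mice only, and 72 h later a total body irradiation of 2 Gy or a sham irradiation. LT-HSC were isolated 5 days after that. Each genotype thus gave a non-irradiated and a 2 Gy group, and each of these 4 groups had 2 arrays. The submitters' design text assigns the replicates to distinct experiments, and the number of mice behind an array is not given in the sources used here.

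Gas6 and protein S, the product of Pros1, are secreted proteins that depend on vitamin K for the carboxylation of their Gla domain. Through that domain they bind phosphatidylserine on dying cells and platelets, and through their other end they bind the receptor tyrosine kinases Tyro3, Axl and Mertk, from whose initials the family is named. In macrophages and dendritic cells the receptors promote the clearance of apoptotic cells and restrain cytokine signalling, and protein S is in addition a plasma anticoagulant. Gas6 binds all of the receptors and is the ligand of Axl, while protein S acts on Mertk and Tyro3.

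The promoters of both ligand genes are shown because the largest difference between groups was that of a ligand gene, Gas6. The windows run from 250 bases before to 50 bases after the RefSeq start site in mouse build GRCm38.p6, at chr8:13494486-13494785 (minus strand) for Gas6 and chr16:62854057-62854356 (plus strand) for Pros1. Each is written 5′ to 3′ on the strand of the gene, with capitals for GC boxes (GGGCGG, or CCGCCC where the match is on the other strand).
Gas6: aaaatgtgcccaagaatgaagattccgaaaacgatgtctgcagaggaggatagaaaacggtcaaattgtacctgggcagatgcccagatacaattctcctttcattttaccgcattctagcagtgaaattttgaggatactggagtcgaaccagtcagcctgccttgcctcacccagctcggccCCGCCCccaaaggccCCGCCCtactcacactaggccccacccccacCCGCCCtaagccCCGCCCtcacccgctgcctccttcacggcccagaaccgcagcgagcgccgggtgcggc
Pros1: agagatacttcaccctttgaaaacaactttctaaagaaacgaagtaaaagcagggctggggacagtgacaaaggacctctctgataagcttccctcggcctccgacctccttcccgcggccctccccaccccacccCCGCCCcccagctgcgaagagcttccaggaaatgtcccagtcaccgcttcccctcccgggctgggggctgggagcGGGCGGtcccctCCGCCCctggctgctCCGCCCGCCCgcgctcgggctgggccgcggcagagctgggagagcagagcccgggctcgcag
GC boxes, the motif that Sp1 binds, matched at 4 places in the Gas6 window and at 5 in the Pros1 window, of which the last 2 overlap. The Axl window held 2, the Mertk window 4 and the Tyro3 window 6, and 35.7% of all 32841 windows of that length held at least 1. None of the 5 windows held a CCAAT box (CCAAT, 37.4% of all windows), a TATA box (TATAAA, 13.6%), an E-box (CACGTG, 7.15%) or an AP-1 site (TGANTCA, 7.81%), on either strand. The p53 decamer (8.36% of all windows) matched at 1 place in the Mertk window and in none of the other 4 windows.

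The values are log2 values of robust multi-array averaging (RMA), and the median over the tested probe sets was 4.86 to 5.03 per array. Kit, on whose protein the sort relied, stood at 14.25 to 14.93, and Hlf, a stem cell transcription factor, at 12.44 to 13.33. Slamf1 (CD150) stood at 10.66 to 12.38. Cd48, whose protein the sort excluded, stood at 10.98 to 13.47 and differed by 1.435 ± 0.50 log2 after irradiation in WT (adjusted p = 0.582) and by 1.44 ± 0.50 in CD169-DTR (adjusted p = 0.644 in limma). Cdkn1a, the p53 target used as a check of irradiation, stood at 13.06 to 13.41 in the 4 irradiated arrays. Without irradiation it stood at 7.86 and 8.39 in WT and at 9.79 and 9.34 in CD169-DTR. Its irradiation difference was 5.11 ± 0.24 log2 in WT (adjusted p = 0.0073 in limma). In CD169-DTR it was 3.67 ± 0.24, which did not reach an adjusted p under 0.05 (adjusted p = 0.062 in limma). Of the 14 macrophage markers, 9 lay below the median of their array in all 8 arrays and 3 above it in all 8, Lyz2 (13.51 to 14.0), Cd68 (7.57 to 8.67) and Cd14 (4.89 to 5.75). Among the 9, Csf1r, the receptor of macrophage colony-stimulating factor, stood at 4.12 to 4.84, Adgre1, another macrophage surface marker, at 4.19 to 4.75 and Siglec1 at 3.86 to 4.12. WT 2 Gy replicate 1 and CD169-DTR 2 Gy replicate 2, called the far 2 Gy arrays below, were picked after seeing the data. No measure of how far they stand from the other arrays is given here. Tests were made with limma across 30294 probe sets, and a probe set passed at a Benjamini-Hochberg adjusted p under 0.05. The differences carry the SE of that fit, and the group means the SD of 2 arrays.

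Gas6 was highest in irradiated WT LT-HSC. The log2 values were 5.32 and 5.23 in WT non-irradiated, 6.61 and 7.00 in WT 2 Gy, 5.57 and 5.65 in CD169-DTR non-irradiated and 5.72 and 6.01 in CD169-DTR 2 Gy. Both WT 2 Gy arrays lay above the 6 other arrays, a pattern that 6.7% of the tested probe sets also showed, and no group overlapped with another. From low to high, the group means were 5.28 ± 0.06 in WT non-irradiated, 5.61 ± 0.06 in CD169-DTR non-irradiated, 5.87 ± 0.21 in CD169-DTR 2 Gy and 6.81 ± 0.28 in WT 2 Gy (SD, n = 2 each). The step between the last 2 of these was larger than the gaps within groups, which were 0.08 to 0.39. The steps from the first to the second and from the second to the third group did not differ beyond their error in limma.

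**Figure D1:**
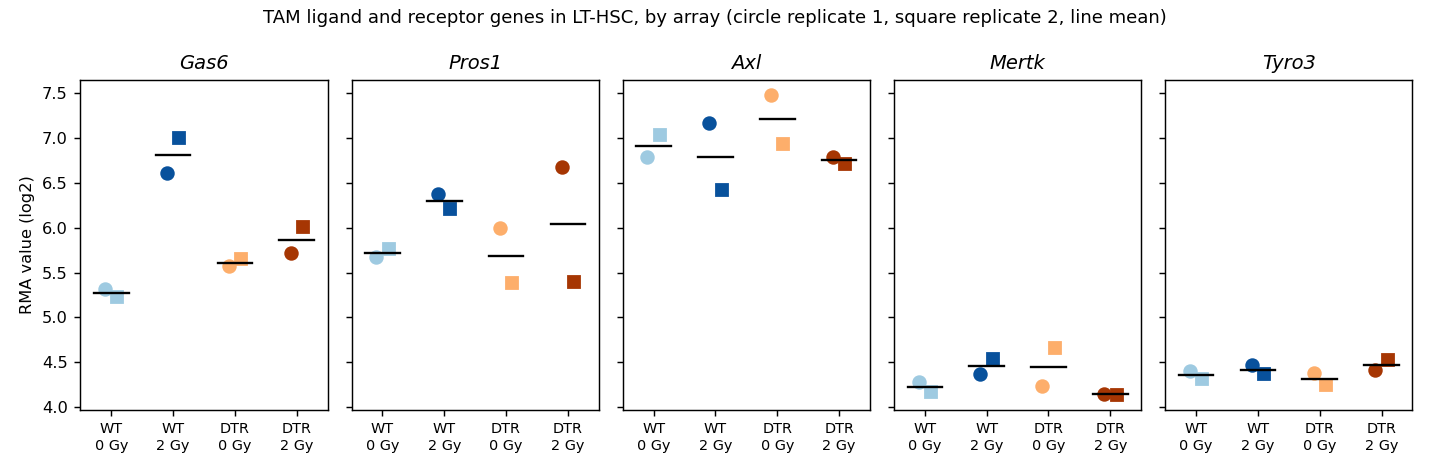
RMA values (log2, y axis) of the 5 genes in each array, with groups on the x axis (DTR is CD169-DTR, 0 Gy is non-irradiated), circles for replicate 1, squares for replicate 2 and a line at the group mean of n = 2. The WT 2 Gy arrays of Gas6 (6.61 and 7.00) stand above its other 6 arrays (5.23 to 6.01); levels are to be compared within a gene, since probe sets differ in brightness.

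The first comparison, of irradiated with non-irradiated WT LT-HSC, concerns mice that keep their CD169+ macrophages. Gas6 differed by 1.53 ± 0.17 log2, which is 2.89-fold with a 95% interval of 2.17 to 3.84. It had the 8th smallest p of the 30294 probe sets (unadjusted p = 6.65e-05) and did not pass in limma, with an adjusted p of 0.227. Of the 5 genes 0 passed, where 0.0099% of the tested probe sets (3) did. At an unadjusted p under 0.05 Gas6 was the 1 gene of 5, against 7.81% of all probe sets. The groups did not overlap for 3 of the 5 genes (Gas6, Pros1 and Mertk), all of them higher after irradiation, and for 44.7% of all probe sets. In bulk RNA of sorted cells, a different share of cells that express a gene and a different amount of RNA per cell cannot be told apart.

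In CD169-DTR mice the same comparison gave a smaller value for Gas6. The CD169-DTR 2 Gy arrays exceeded the non-irradiated ones by 0.255 ± 0.17 log2 (1.19-fold), and the 95% interval of the log2 difference ran from -0.16 to 0.67 (adjusted p = 0.872 in limma). The groups did not overlap for 4 of the 5 genes, Gas6 and Tyro3 higher and Axl and Mertk lower after 2 Gy, against 31.2% of all probe sets. None of the 5 genes passed and 0% of all probe sets did, while at an unadjusted p under 0.05 there were 0 of the 5 genes and 6.77% of all probe sets.

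The test of the difference between the genotypes, the interaction of genotype and irradiation, gave -1.275 ± 0.24 log2 for Gas6 with a 95% interval from -1.86 to -0.69. The fold change with irradiation was 2.89 in WT and 1.19 in CD169-DTR, a ratio of 2.42. The interaction had the 55th smallest p of all (unadjusted p = 0.00146) and did not pass, with an adjusted p of 0.778 in limma. No probe set passed in that comparison (0%), and 5.17% had an unadjusted p under 0.05, among them 1 of the 5 genes, Gas6. Averaged over the genotypes, the irradiation difference of Gas6 was 0.89 ± 0.12 log2 (1.86-fold, 95% interval 1.52 to 2.27, adjusted p = 0.209). All 4 irradiated arrays lay above all 4 non-irradiated ones, which held for 1 of the 5 genes and, in either direction, for 5.5% of all probe sets. In this average 0 of the 5 genes passed against 0.0099% of all probe sets, and 1 of the 5 had an unadjusted p under 0.05 against 9.23%.

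The comparison of CD169-DTR with WT after 2 Gy asks how irradiated LT-HSC differed when CD169+ macrophages had been depleted. Gas6 had a log2 difference of -0.94 ± 0.17, which is 1.92-fold lower in CD169-DTR (95% interval 1.44 to 2.55), with the 59th smallest p of all (unadjusted p = 0.00116, adjusted p = 0.551 in limma). With each array left out in turn the difference ran from -1.135 to -0.745. Without both far 2 Gy arrays it was -1.28. Those 2 arrays hold the lower WT 2 Gy value (6.61) and the higher CD169-DTR 2 Gy value (6.01), so leaving them out had to widen the difference. Of the 5 genes, the groups did not overlap for 2, Gas6 and Mertk, both lower in CD169-DTR, against 34.9% of all probe sets. Again 0 of the 5 genes and 0% of all probe sets passed, and Gas6 was the 1 of 5 genes with an unadjusted p under 0.05, against 7.57% of all probe sets.

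Without irradiation the difference between the genotypes had the opposite sign for Gas6. CD169-DTR exceeded WT by 0.335 ± 0.17 log2 (1.26-fold), with a 95% interval from -0.08 to 0.75 (adjusted p = 0.999 in limma). The groups did not overlap for 1 of the 5 genes, Gas6, against 31% of all probe sets. None of the 5 genes passed (0% of all probe sets), and 0 of the 5 had an unadjusted p under 0.05 against 4.38%. Gas6 was thus higher in CD169-DTR without irradiation and lower after 2 Gy, with no overlap in either comparison, a pattern that 3.24% of all probe sets shared. Averaged over both doses its genotype difference was -0.30 ± 0.12 log2 (adjusted p = 0.787 in limma). In that average Gas6 was the 1 of 5 genes with an unadjusted p under 0.05 against 6.33% of all probe sets, and 0 of the 5 passed against 0%. The comparisons share groups: both WT 2 Gy arrays enter irradiation in WT, depletion after 2 Gy and the interaction, so these do not support one another.

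**Figure D2:**
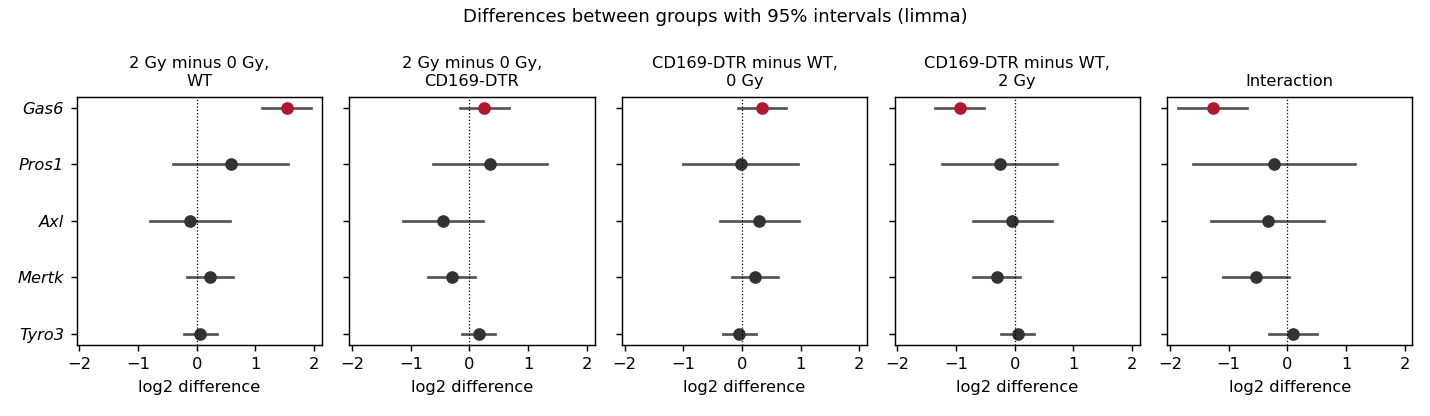
Log2 differences (x axis) of the 5 genes (y axis) with 95% intervals from limma for irradiation in each genotype, for CD169-DTR minus WT at each dose, and for the interaction. The intervals of Gas6 lie away from 0 for irradiation in WT (1.12 to 1.94), for the genotypes after 2 Gy (-1.35 to -0.53) and for the interaction (-1.86 to -0.69), while each interval of the other 4 genes includes 0.

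Pros1, which encodes the ligand protein S, differed less than Gas6 after irradiation in WT and varied more between replicates in CD169-DTR. Its log2 values were 5.67 and 5.76 in WT non-irradiated, 6.38 and 6.21 in WT 2 Gy, 6.0 and 5.38 in CD169-DTR non-irradiated and 6.68 and 5.40 in CD169-DTR 2 Gy. Both WT 2 Gy arrays stood above both WT controls, whereas in CD169-DTR replicate 1 was the higher array at either dose and the groups overlapped. The irradiation difference was 0.58 ± 0.41 log2 in WT (95% interval -0.40 to 1.56, adjusted p = 0.72) and 0.35 ± 0.41 in CD169-DTR (-0.63 to 1.33, adjusted p = 0.942 in limma). In CD169-DTR the value had the opposite sign, -0.29, without CD169-DTR 2 Gy replicate 1, and was 0.99 without CD169-DTR 2 Gy replicate 2. The interaction of Pros1 was -0.23 ± 0.58 (-1.61 to 1.15). The 4 group means, 5.69 and 5.72 in the non-irradiated groups and 6.04 and 6.30 after 2 Gy, did not differ beyond this spread. It is estimated over all 4 groups, whose replicates lay 0.09 and 0.17 apart in WT and 0.62 and 1.28 apart in CD169-DTR. With only the WT groups fitted, the WT difference had an unadjusted p of 0.008 and did not pass (adjusted p = 0.484 in limma).

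Axl, the receptor with the closest tie to Gas6, had no difference whose 95% interval left out 0. Its log2 values were 6.79 and 7.03 in WT non-irradiated, 7.16 and 6.42 in WT 2 Gy, 7.48 and 6.93 in CD169-DTR non-irradiated and 6.79 and 6.71 in CD169-DTR 2 Gy. The WT 2 Gy arrays were the widest pair, 0.74 apart, and enclosed both WT controls. The irradiation difference was -0.12 ± 0.28 log2 in WT (95% interval -0.798 to 0.558, adjusted p = 0.904 in limma). Without WT 2 Gy replicate 2 it was 0.25. In CD169-DTR the difference was -0.455 ± 0.28 (-1.13 to 0.22, adjusted p = 0.854), and both irradiated arrays lay below both controls.

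Mertk, the main receptor of macrophages for apoptotic cells, stood below the array median in 8 of 8 arrays. The log2 values were 4.28 and 4.17 in WT non-irradiated, 4.37 and 4.54 in WT 2 Gy, 4.24 and 4.66 in CD169-DTR non-irradiated and 4.15 and 4.14 in CD169-DTR 2 Gy. Irradiated arrays were thus above their controls in WT and below them in CD169-DTR, a pattern that 2.68% of all probe sets shared. The differences were small, 0.23 ± 0.16 log2 in WT (95% interval -0.16 to 0.62, adjusted p = 0.721) and -0.305 ± 0.16 in CD169-DTR (-0.70 to 0.09, adjusted p = 0.816 in limma). The interaction was -0.535 ± 0.23 (-1.09 to 0.02, adjusted p = 0.933), and CD169-DTR minus WT after 2 Gy was -0.31 ± 0.16 (adjusted p = 0.714).

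Tyro3, the third receptor, was the steadiest of the 5 genes, with all 8 arrays between 4.25 and 4.53 and below the array median. The log2 values were 4.40 and 4.32 in WT non-irradiated, 4.47 and 4.37 in WT 2 Gy, 4.38 and 4.25 in CD169-DTR non-irradiated and 4.41 and 4.53 in CD169-DTR 2 Gy. The irradiation difference was 0.06 ± 0.12 log2 in WT (95% interval -0.23 to 0.35) and 0.155 ± 0.12 in CD169-DTR (-0.13 to 0.44), with adjusted p of 0.883 and 0.894 in limma. The upper ends of both intervals lie below the difference of Gas6 in WT. The sign in WT depends on the scaling: centring each array on its median lowers every irradiation difference in WT by 0.115 log2 and gives -0.06 for Tyro3 (also -0.06 with cyclic loess), and 1.415 for Gas6.

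Markers of other cells differed between the same arrays. The mean log2 value of 11 neutrophil and granulocyte progenitor genes was 7.74 and 8.58 in WT non-irradiated, 9.62 and 10.27 in WT 2 Gy, 8.92 and 9.66 in CD169-DTR non-irradiated and 9.52 and 8.59 in CD169-DTR 2 Gy. In WT 10 of the 11 were higher after irradiation, as were 64.2% of all probe sets, and 0 passed in limma. This list and Gas6 were both highest in WT 2 Gy replicate 2. In CD169-DTR non-irradiated replicate 2 the list stood at 9.66 against 9.62 in WT 2 Gy replicate 1, while Gas6 stood at 5.65 against 6.61. The genes of the list differed in this. Ngp (9.88 against 8.06), Retnlg (6.19 against 3.99) and Ltf (6.0 against 5.52) were higher there than in WT 2 Gy replicate 1. Elane (12.87 against 12.80) and Prtn3 (9.12 against 9.09) were nearly equal. Ctsg (8.95 against 9.81), Ms4a3 (8.95 against 9.77), Mpo, S100a8, S100a9 and Camp were lower. Elane, Mpo, Ctsg, Prtn3, Ms4a3, S100a8 and Camp were highest in WT 2 Gy replicate 2, like Gas6, and S100a9, Ngp, Ltf and Retnlg in other arrays. Megakaryocyte and platelet genes (7 of 10 measured) had a mean of 10.80 in WT 2 Gy replicate 1 and 9.17 to 10.10 in the other 7 arrays. The 14 monocyte and macrophage genes had a mean of 5.37 and 5.38 in WT non-irradiated, 5.60 and 5.45 in WT 2 Gy, 5.51 and 5.22 in CD169-DTR non-irradiated and 5.44 and 5.36 in CD169-DTR 2 Gy, with 12 of 14 higher after irradiation in WT against the same 64.2%. The mean of 11 endothelial and stromal genes lay between 5.15 and 5.51, the range of both WT 2 Gy arrays being 5.31 to 5.36. That of 9 LT-HSC genes, of which Vwf is also on the megakaryocyte list, was 9.29 to 9.83, that of 6 erythroid genes 7.80 to 9.86 and that of 10 NK and dendritic cell genes 5.83 to 6.11. The part of other cells in the Gas6 difference was not tested.

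**Figure D3:**
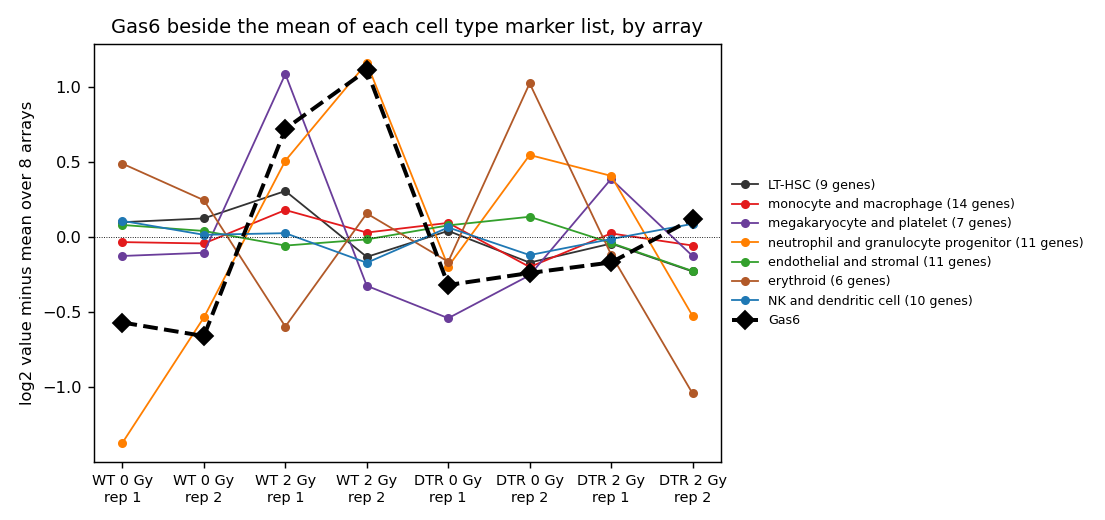
Gas6 (dashed line, diamonds) and the mean of each marker list (solid lines) as log2 value minus its own mean over the 8 arrays (y axis), by array (x axis; lines only join the points of a list). Gas6 and the neutrophil list are both highest in WT 2 Gy replicate 2 (7.00 and 10.27), while in CD169-DTR non-irradiated replicate 2 the list stands at 9.66 and Gas6 at 5.65. The list is a mean, and its genes differ in which of the 8 arrays is highest.

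The genes whose profile was closest to that of Gas6 were found by the root mean square (RMS) difference of centred log2 values over the 8 arrays. They were Nucb2, which encodes the calcium-binding protein nucleobindin 2 (RMS difference 0.157 log2), Cldn15, a claudin of tight junctions (0.215), and Ccdc122 (0.216). Nucb2 stood at 7.18 and 7.20 in WT non-irradiated, 8.31 and 8.82 in WT 2 Gy, 7.01 and 7.52 in CD169-DTR non-irradiated and 7.57 and 7.94 in CD169-DTR 2 Gy. Both WT 2 Gy arrays of Nucb2 thus exceeded its other 6 arrays, as for Gas6. The closest profiles to Pros1 were those of Ccl17, a chemokine (0.13), Trav13n-1 (0.168) and Armcx6 (0.17), each highest in CD169-DTR 2 Gy replicate 1. The closest to Axl were Vmn1r-ps56 (0.0976), Pdcd1lg2, which encodes the checkpoint ligand PD-L2 (0.114), and Pik3cg, a catalytic subunit of PI3 kinase (0.116), each highest in CD169-DTR non-irradiated replicate 1. Vmn1r-ps56 was dim, at 3.28 to 4.07, where the lower quartile of the arrays was 3.88 to 4.06. Trav13n-1, at 3.82 to 4.8, was below the array medians of 4.86 to 5.03. These are the nearest of 18576 profiles over 8 arrays, from which predicted genes and the like were left out, and they were not tested. The profiles of Mertk and Tyro3 spanned less than 1 log2 and were not matched.

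**Figure D4:**
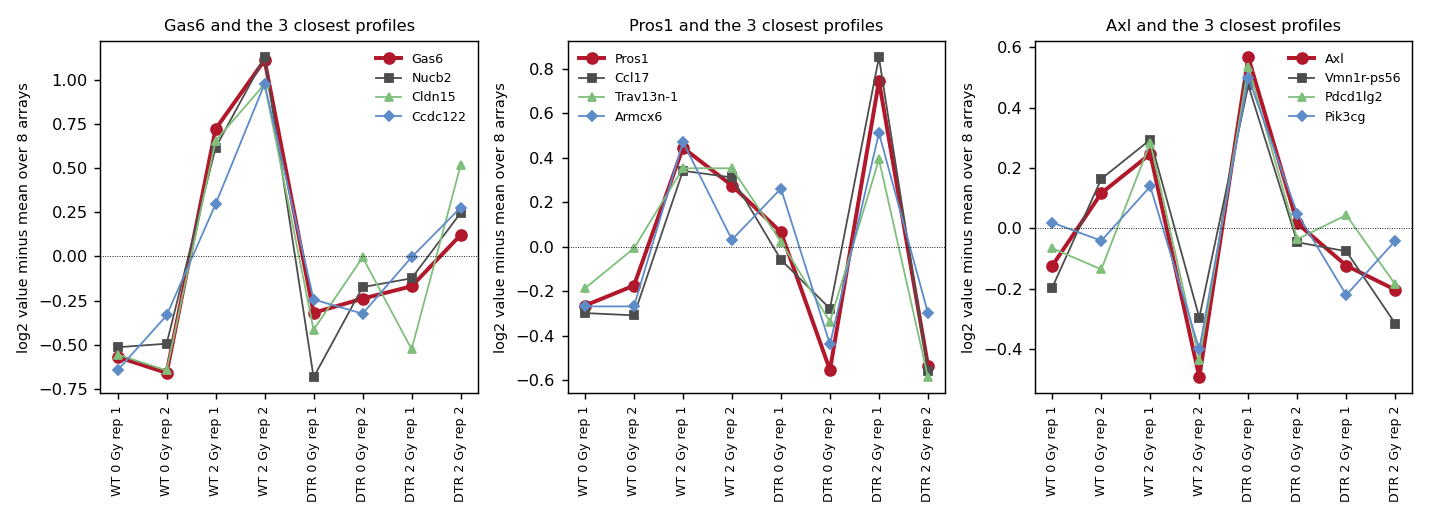
Log2 value minus the mean over 8 arrays (y axis) for Gas6, Pros1 and Axl (thick red lines) and the 3 closest profiles of each (thin lines), by array (x axis; lines only join the points of a gene). The Gas6 panel is highest in both WT 2 Gy arrays, the Pros1 panel in CD169-DTR 2 Gy replicate 1, and the Axl panel in CD169-DTR non-irradiated replicate 1.

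The wider pathway was read from 7 lists of 65 genes, of which 62 were measured. None of the 62 passed in limma in any of the 7 comparisons, in either direction. At an unadjusted p under 0.05 there were 7 of 62 (11.3%) for irradiation in WT against 7.81% of all probe sets, and 6 (9.68%) for irradiation in CD169-DTR against 6.77%. There were 8 (12.9%) for depletion without irradiation against 4.38% and 4 (6.45%) for depletion after 2 Gy against 7.57%. The median log2 difference of the 62 was -0.015 for irradiation in WT, where all tested probe sets had 0.075, and 0.03 in CD169-DTR, where they had 0.035. For depletion it was -0.06 without irradiation (all probe sets 0.03) and -0.05 after 2 Gy (all probe sets -0.02).

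None of the genes that make the ligands active passed. The 4 genes of the vitamin K cycle and propeptide cleavage (Ggcx, Vkorc1, Vkorc1l1 and Furin) had a median difference of -0.03 for irradiation in WT and 0.04 in CD169-DTR. Ggcx, the carboxylase of the Gla domain, had -0.095 ± 0.18 for irradiation in WT and 0.235 ± 0.18 in CD169-DTR, where its groups did not overlap. Its difference for depletion without irradiation was -0.325 ± 0.18, again without overlap (adjusted p = 0.999 in limma). In each of these 2 comparisons the groups did not overlap for 1 of the 4 genes, against 31.2% and 31% of all probe sets. Of the proteases that shed the receptors from the cell surface, Adam10 had 0.055 ± 0.12 and Adam17 had -0.39 ± 0.38 for irradiation in WT. Lgals3 (galectin-3), one of 3 other proposed ligands, had 0.01 ± 0.15.

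Among the 21 other phosphatidylserine receptors and bridging proteins, 11 were higher and 10 lower after irradiation in WT. Cd300a, an inhibitory receptor for phosphatidylserine, was lower after 2 Gy in both genotypes. Its log2 values were 7.63 and 7.56 in WT non-irradiated, 7.01 and 6.94 in WT 2 Gy, 7.78 and 7.38 in CD169-DTR non-irradiated and 6.97 and 6.56 in CD169-DTR 2 Gy. All 4 irradiated arrays lay below all 4 controls. Such a separation held for 3 of the 62 measured pathway genes, all lower, and in either direction for 5.5% of all probe sets. The average difference of Cd300a was -0.72 ± 0.13 (1.64-fold, adjusted p = 0.295 in limma). Mfge8, a bridge between phosphatidylserine and integrins, stood at 6.64 and 6.81 in WT 2 Gy and at 7.54 and 7.28 in CD169-DTR 2 Gy. Its genotype difference after 2 Gy, 0.685 ± 0.17 (adjusted p = 0.619), had the opposite sign to that of Gas6.

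Of the 11 engulfment genes, 9 were lower and 2 higher after irradiation in WT, with a median of -0.19, where 64.2% of all probe sets were higher. In CD169-DTR 5 were lower and 6 higher, with a median of 0.015, where 56.6% of all probe sets were higher. For CD169-DTR minus WT without irradiation 9 were lower and 2 higher too, with a median of -0.21, where 57.0% of all probe sets were higher. That comparison and irradiation in WT share the WT non-irradiated arrays, so low values in both can come from high values in those arrays. Abca1, a lipid exporter, had -0.70 ± 0.24 for irradiation in WT (adjusted p = 0.575 in limma) and -0.88 ± 0.24 for depletion without irradiation (adjusted p = 0.988). Elmo1, a partner of Dock proteins in Rac activation, had -0.67 ± 0.25 for irradiation in WT (adjusted p = 0.599) and -0.33 ± 0.25 for depletion without irradiation. Gulp1, an adaptor of engulfment receptors, averaged -0.62 ± 0.16 over the genotypes (adjusted p = 0.405 in limma). All 4 irradiated arrays (8.51 to 9.19) lay below all 4 controls (9.23 to 9.76). That separation held for 1 of the 11 engulfment genes and, in either direction, for 5.5% of all probe sets. Of 13 measured signalling and feedback genes, 7 were higher and 6 lower after irradiation in WT. Vav1, an exchange factor for Rac downstream of Mertk, had the largest difference of the named ones, -1.125 ± 0.28 in WT (adjusted p = 0.5), from 9.62 and 8.88 to 7.95 and 8.30.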

How the data were processed

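RNA of 8 LT-HSC samples was hybridised to Affymetrix arrays. The authors deposited 1 RMA value per probe set and array, per the submitters' processing notes, and these were read as log2 values because that is the convention of RMA; the table does not name the base. They were used as deposited. The software and build behind them are not given in the sources used here.

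Of 40161 probe sets, 30294 carried 1 gene symbol once repeats of a symbol were merged, and these were tested; 2145 carried several symbols and 7722 none. Through Entrez IDs 22546 were matched to RefSeq (GRCm38.p6), which updated 827 symbols and supplied the promoters.

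The 4 group means were fitted in 1 limma model (limma 3.58.1, R 4.3.3; 4 residual and 2.59 prior degrees of freedom) with 7 comparisons, two-sided and Benjamini-Hochberg adjusted over the 30294 probe sets. The model was tested on simulated data. The number of arrays limits precision, and nothing says whether an array holds 1 mouse or several, so p-values measure the spread between these samples.

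The members and lists were chosen with earlier results of these data known. Named genes were the 5 members, Siglec1, Kit, Cdkn1a, Cd48 and Slamf1 as checks, members of each pathway list that passed, else up to 2 a list and comparison with the smallest p, a fold of at least 1.5 and groups without overlap, and the 3 closest profiles of members that span at least 1 log2. Predicted genes and RIKEN clones, olfactory receptors, immunoglobulin segments and microRNAs were left out of the profiles, and the text gives a choice. Hlf, Csf1r, Adgre1, Ggcx, Adam10, Adam17 and Lgals3 were named for their role, and Lyz2, Cd68 and Cd14 after their values were seen.

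The alternatives were array weights, median centring, cyclic loess, a dim filter at the 40th percentile, an intensity trend with robust hyperparameters, all probe sets, the replicate block, only the compared groups, an unadjusted p under 0.05 with a fold of at least 1.5, each array left out, and, added after seeing the data, both far 2 Gy arrays left out.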

Additional observations from a re-analysis of the deposited data

Results flagged for a closer look

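Gas6 was higher in CD169-DTR than in WT without irradiation (5.57 and 5.65 against 5.32 and 5.23) and lower after 2 Gy (5.72 and 6.01 against 6.61 and 7.00), so the genotypes stood in opposite order with and without irradiation. The limma test of that difference gave -1.275 ± 0.24 log2 and did not pass (adjusted p = 0.778, and 0.355 to 0.998 over the alternatives).

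Mertk was higher after irradiation in both WT arrays and lower in both CD169-DTR arrays. The limma test of that difference gave -0.535 ± 0.23 log2 and did not pass (adjusted p = 0.933, and 0.731 to 1.0 over the alternatives). All 8 Mertk values lie below the median of their array.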

How the results depend on the processing

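No TAM gene passed an adjusted p under 0.05 in limma under any alternative, and the sign of Gas6 was the same in all 7 comparisons under each. Over the alternatives its adjusted p was 0.148 to 0.755 for irradiation in WT and 0.293 to 0.809 for depletion after 2 Gy. With an unadjusted p under 0.05 and a fold of at least 1.5 in place of the adjusted p, 1 TAM gene, Gas6, was called for irradiation in WT (1.53 log2), depletion after 2 Gy (-0.94), the average irradiation effect (0.89) and the interaction (-1.275), among 1002, 1077, 588 and 1215 probe sets.

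Signs turned only for differences of the other genes that did not pass; the cause was not tested. Tyro3 for irradiation in WT had -0.057 with cyclic loess and -0.055 with median centring, and Axl for depletion after 2 Gy had 0.03 with median centring. Without both far 2 Gy arrays, depletion after 2 Gy was 0.47 for Pros1 and 0.37 for Axl, the average irradiation effect 0.0075 for Mertk, the average genotype effect 0.22 for Pros1 and -0.0025 for Tyro3, and the interaction 0.495 for Pros1 and 0.075 for Axl. With each array left out in turn, the ranges that cross 0 were, for Pros1, -0.29 to 0.99 (irradiation in CD169-DTR), -0.335 to 0.285 and -0.895 to 0.385 (depletion without and after irradiation), -0.46 to 0.18 (average genotype effect) and -0.87 to 0.41 (interaction). For Axl they were -0.49 to 0.25 (irradiation in WT), -0.41 to 0.33 (depletion after 2 Gy), -0.0575 to 0.3125 (average genotype effect) and -0.705 to 0.035 (interaction), for Mertk -0.1425 to 0.0675 (average irradiation effect) and -0.1475 to 0.0625 (average genotype effect), and for Tyro3 -0.11 to 0.02 and -0.01 to 0.11 (depletion without and after irradiation) and -0.03 to 0.035 (average genotype effect).

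The numbers over all probe sets moved more: 3 for irradiation in WT became 0 to 16 with 1 array left out and 0 to 4 otherwise, 3 for the average irradiation effect became 1 to 12 and 1 to 4, and 0 in the other comparisons became up to 11. Same-numbered replicates deviated together in 1 of 6 pairs of groups (r of -0.09 to 0.16), so the number is not taken as a pairing; with the replicate block all 35 differences kept their sign and side of the threshold (lowest adjusted p 0.286), Gas6 having 1.53 for irradiation in WT (adjusted p = 0.378), and the probe sets that passed in WT became 1. The dim filter leaves out Mertk and Tyro3, and no TAM gene had a further probe set to try. The groups compared alone give no other fit for the averages and the interaction. Mertk and Tyro3 lie below the median signal of every array, and without detection calls it is not known whether they are above background.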

Other observations

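In the wider phosphatidylserine pathway, Scarf1, a scavenger receptor for apoptotic cells, had an interaction of the opposite sign to that of Gas6. Its log2 values were 7.12 and 6.56 in WT non-irradiated, 6.17 and 6.02 in WT 2 Gy, 6.11 and 6.10 in CD169-DTR non-irradiated and 6.80 and 6.60 in CD169-DTR 2 Gy. The irradiated arrays were below both controls in WT and above both in CD169-DTR, where Gas6 was higher too. Groups did not overlap, in either direction, for 44.7% of all probe sets in WT and 31.2% in CD169-DTR. The share with both of these directions was not counted. The interaction was 1.34 ± 0.28 (adjusted p = 0.836 in limma). Scarf1 was the 1 of 21 genes of its list with an unadjusted p under 0.05 in that test, against 5.17% of all probe sets.

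Genes that set phosphatidylserine exposure had genotype groups that did not overlap without irradiation in 4 of 8 cases, 2 higher and 2 lower in CD169-DTR, against 31% of all probe sets. Tmem30a, the subunit that flippases need to return phosphatidylserine to the inner leaflet, stood at 10.55 and 10.50 in WT non-irradiated and at 9.90 and 9.80 in CD169-DTR non-irradiated, a difference of -0.675 ± 0.15 log2 (adjusted p = 0.937). After 2 Gy the groups overlapped, with 10.41 and 10.48 in WT and 10.35 and 10.72 in CD169-DTR. Xkr8, a scramblase that exposes phosphatidylserine in apoptosis, stood at 4.82 and 4.57 in WT non-irradiated and at 5.18 and 5.51 in CD169-DTR non-irradiated, a difference of 0.65 ± 0.20 (adjusted p = 0.999). The Xkr8 groups did not overlap after 2 Gy either, with 4.56 and 4.96 in WT and 5.26 and 5.05 in CD169-DTR. Groups did not overlap after 2 Gy for 34.9% of all probe sets. The Xkr8 difference was 0.395 ± 0.20 (adjusted p = 0.699 in limma). None of these passed in limma.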
